A study of Mus musculus with 8 samples.

Results

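The 9 genes described here encode the FOS and JUN subunits of the transcription factor AP-1 (*Fos*, *Fosb*, *Fosl1*, *Fosl2*, *Jun*, *Junb*, and *Jund*), the related bZIP factor ATF3 (*Atf3*), and the zinc finger factor EGR1 (*Egr1*). They were chosen by gene symbol, with earlier results of these data known. All 9 were found among the 18533 gene symbols in the data, and all 9 were among the 13535 genes that passed edgeR's filter on low counts. RNA-Seq was performed on MASMCs, primary smooth muscle cells isolated from the aorta of young male mice after the adventitia and endothelium had been removed. Cells came from WT mice (n = 4 samples) and from *Hint1*-/- mice (n = 4 samples), which lack *Hint1* in all cells and not in smooth muscle alone. Every sample of both genotypes received PDGF-BB, a growth factor that drives smooth muscle cells out of the contractile state, at 20 ng/mL for 24 hours. No sample without PDGF-BB and no earlier time was analysed here, so the values compare genotypes late in the response and hold no induction. Whether the 4 samples of a genotype came from separate mice or cultures is not given in the sources used here, and the p-values then measure only the spread between these samples.

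AP-1 is a dimer of a JUN protein with a FOS or ATF protein, or with another JUN, joined through leucine zippers and bound to DNA at the AP-1 site. Growth factors switch on *Fos*, *Egr1*, and their relatives within minutes through MAP kinases and serum response factor, without new protein synthesis, which is why they are called immediate-early genes. *Fosl1* and *Fosl2* come later and stay on longer. In smooth muscle cells, AP-1 and EGR1 are known for their part in the response to injury and growth factors. HINT1 has been described as a repressor of AP-1 activity, and the comparison of genotypes asked whether the mRNAs of these factors differed without it.

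The stretches of 150 bases just before the transcription start are shown for *Fosl2*, *Fos*, and *Atf3*, members with a genotype difference, for *Jun*, which carries its own AP-1 variant, and for *Fosb*, which shares a motif with *Fosl2*. Sequences are from RefSeq on GRCm38.p6, are written 5′ to 3′ on the strand of the gene, and have the searched motifs in capitals. Windows were searched for 7 of the 9 members. No RefSeq entry was matched for *Fosl1*, and the window of *Egr1* was left out and is not reported here. The windows are chr12:85473740-85473889 (plus strand) for *Fos*, chr7:19310046-19310195 (minus strand) for *Fosb*, chr5:32136322-32136471 (plus strand) for *Fosl2*, chr4:95052223-95052372 (minus strand) for *Jun*, and chr1:191183334-191183483 (minus strand) for *Atf3*.
*Fos*: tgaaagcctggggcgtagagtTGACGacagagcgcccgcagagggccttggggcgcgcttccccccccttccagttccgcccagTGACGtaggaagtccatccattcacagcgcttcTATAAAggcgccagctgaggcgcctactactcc
*Fosb*: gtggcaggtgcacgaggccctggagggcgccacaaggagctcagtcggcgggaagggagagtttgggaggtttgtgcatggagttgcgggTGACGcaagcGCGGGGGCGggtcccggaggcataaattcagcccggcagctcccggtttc
*Fosl2*: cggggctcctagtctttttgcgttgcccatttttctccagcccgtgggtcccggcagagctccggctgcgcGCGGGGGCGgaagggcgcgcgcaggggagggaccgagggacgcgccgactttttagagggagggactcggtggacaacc
*Jun*: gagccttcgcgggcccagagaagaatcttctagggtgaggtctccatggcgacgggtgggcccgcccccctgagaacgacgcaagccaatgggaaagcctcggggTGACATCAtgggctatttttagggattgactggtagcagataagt
*Atf3*: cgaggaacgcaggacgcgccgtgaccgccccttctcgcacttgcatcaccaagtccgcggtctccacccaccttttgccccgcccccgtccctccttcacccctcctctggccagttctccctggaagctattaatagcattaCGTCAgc

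Both strands were searched. *Fos* held the CRE core TGACG, the central part of the site of CREB and ATF factors, 129 and 66 bases before its start, and a TATA box, TATAAA, 33 bases before it. *Fosb* and *Fosl2* each held the EGR site GCGNGGGCG, the letters bound by EGR1, 50 and 79 bases before the start, and *Fosb* also held a CRE core at 60 bases. *Jun* held TGACATCA, the AP-1 variant of its own promoter, at 45 bases. *Atf3* held a CRE core on the opposite strand, so that it reads CGTCA, at 7 bases. Of the members not shown, *Junb* held a CRE core at 106 bases and *Jund* held none of the motifs. Among 32851 RefSeq promoter windows of the same length, the CRE core was in 13.3%, the EGR site in 3.81%, TGACATCA in 2.32%, and TATAAA in 7.57%. The AP-1 site TGANTCA (4.24% of all windows), the whole CRE TGACGTCA (1.36%), and the CArG box, the site of serum response factor (0.916%), were in none of the 7 windows. The CRE core lies within the whole CRE. The RefSeq start of *Fosl2* lies 299 bases from the nearest GENCODE start, and that of *Jund* lies 1210 bases away, which is why it is not shown. A motif here is a match of letters in a short window and no evidence of binding. Sites farther from the start were not searched, so a motif absent here may lie outside the window.

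Depth was nearly equal, at 20778077 to 20888041 estimated counts per sample. *Hint1*, the deleted gene, had 2272, 2336, 2364, and 2301 counts in WT replicates 1 to 4 and 713, 748, 778, and 715 in *Hint1*-/- replicates 1 to 4, so every sample matched its label although reads of the gene remained (32.1% of the WT level). Of the 9 members, 4 differed between genotypes at a Benjamini-Hochberg adjusted p under 0.05 (edgeR quasi-likelihood test), where 21.5% of all genes tested did. *Fosl2* and *Jund* were higher in *Hint1*-/- MASMCs (11.2% of all genes were higher), and *Fos* and *Atf3* were lower (10.2% were lower). Over all genes the balance of calls, 1522 higher and 1385 lower, depended on the scaling and turned to 1253 higher and 1695 lower with library sizes that leave out the 20 most abundant genes. None of the 9 also passed the limit of a 1.5-fold change that the study used, which 2.83% of all genes passed, and DESeq2 and limma-voom likewise called 0 members past it. At an unadjusted p under 0.05 in edgeR there were 5 of the 9 members, *Egr1* being the addition, and 4445 of the 13535 genes tested. All 9 of the 95% intervals lay inside 1.5-fold in either direction, as did those of 85.9% of all genes. The median log2 fold change was −0.0083 over the members and 0.00031 over all genes tested, and the median size without sign was 0.15 and 0.088. Samples of the genotypes did not overlap for *Fosl2* and *Atf3*, 2 of 9 members, against 23.0% of all genes.

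**Figure D1:**
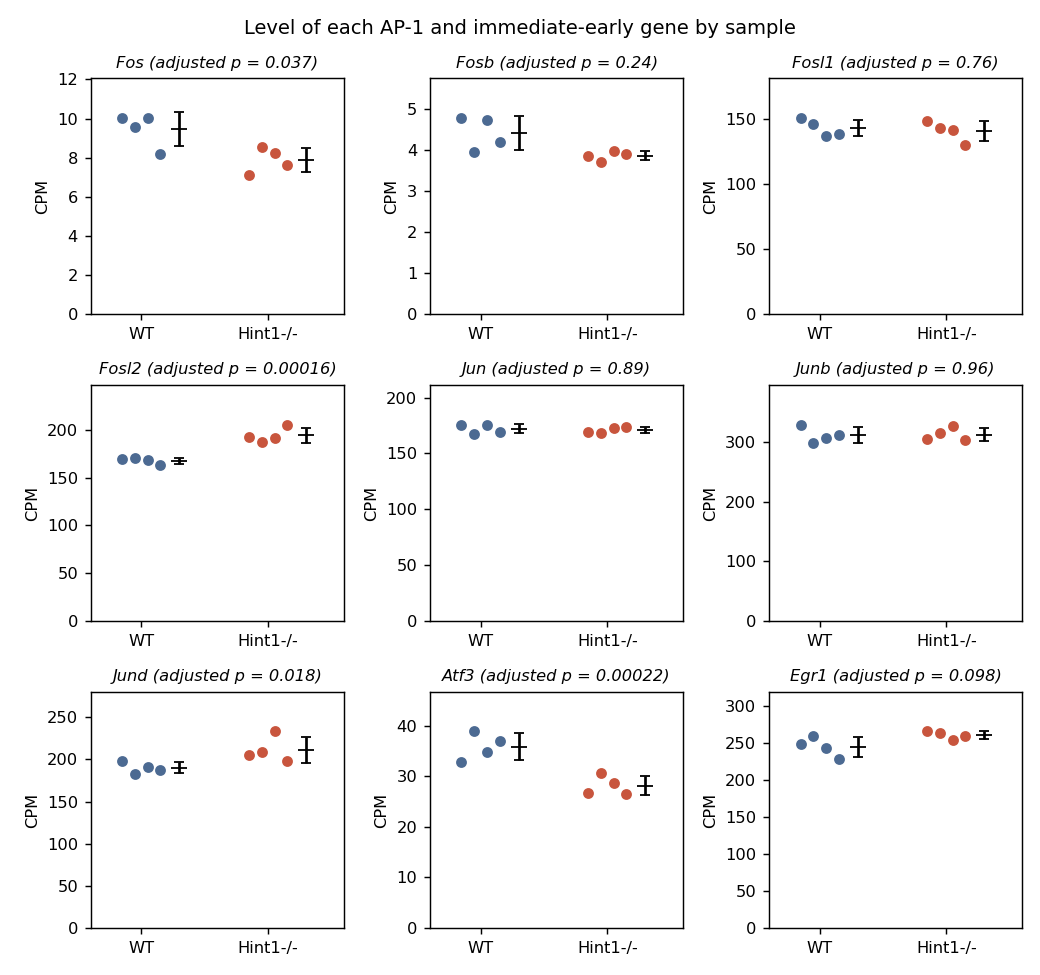
Level of each of the 9 genes in CPM (counts scaled to library size, y axis from 0) in the 4 WT and 4 *Hint1*-/- samples, with the mean and SD beside the points. The groups are apart for *Fosl2* and *Atf3*, nearly apart for *Jund*, and overlap for the other members.

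**Figure D2:**
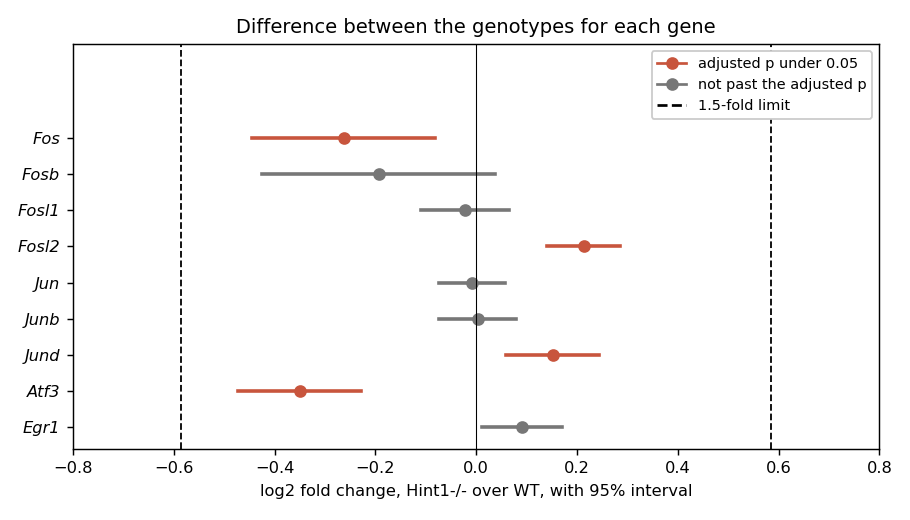
Log2 fold change of each gene, *Hint1*-/- over WT, with its 95% interval. Red marks an adjusted p under 0.05, and every interval lies between the dashed lines at 1.5-fold in either direction.

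Among the FOS subunits, *Fosl2* was higher and *Fos* was lower in *Hint1*-/- MASMCs, by 15.9% and 16.7% of the WT level, and *Fosl1* and *Fosb* did not pass the test. *Fosl2* encodes FRA2, a FOS protein without the strong activation domain of FOS. Its counts were 3531, 3567, 3513, and 3397 in WT replicates 1 to 4 and 3990, 3880, 3984, and 4264 in *Hint1*-/- replicates 1 to 4. All 4 *Hint1*-/- samples lay above all 4 WT samples. Mean CPM rose from 168 ± 3.28 to 194 ± 7.74 (SD, n = 4 each), a log2 fold change of 0.21 (SE 0.034, 95% interval 0.14 to 0.29, adjusted p = 0.000161, edgeR). The gene lies on chr5:32135801-32157842 of mm10.

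*Fos* itself, the classic immediate-early subunit, was scarce at this time. It had 209, 201, 210, and 171 counts in WT replicates 1 to 4 and 148, 177, 171, and 158 in *Hint1*-/- replicates 1 to 4. WT replicate 4 lay among the *Hint1*-/- samples and the other WT samples lay above them, so the groups overlapped. Mean CPM was 9.46 ± 0.871 without the deletion and 7.88 ± 0.631 with it (SD, n = 4 each), a log2 fold change of −0.26 (SE 0.087, 95% interval −0.44 to −0.081, adjusted p = 0.0365, edgeR). The difference in *Fos* was past the threshold in 10 of 16 alternatives. It did not pass in DESeq2 (adjusted p = 0.106), or without WT replicate 1, 2, or 3 or *Hint1*-/- replicate 1 or 4, and adjusted p ranged from 0.0103 to 0.115.

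*Fosb*, whose protein resembles FOS, had 100, 83, 99, and 88 counts in WT and 80, 77, 83, and 81 counts in *Hint1*-/- replicates 1 to 4. It was the scarcest member, and 1 of the WT counts, 83, equalled the highest *Hint1*-/- count. The log2 fold change was −0.19 (95% interval −0.43 to 0.038, adjusted p = 0.237, edgeR). *Fosl1* encodes FRA1, a FOS protein long known as a product of sustained growth factor signalling. Its counts were 3144, 3056, 2864, and 2893 in WT and 3073, 2960, 2943, and 2703 in *Hint1*-/- replicates 1 to 4, and the groups overlapped throughout. The log2 fold change was −0.023 (95% interval −0.11 to 0.064, adjusted p = 0.757, edgeR). The *Fosl1* value is uncertain, since 1163 of its 2033 exon bases are shared with *Ccdc85b* on the opposite strand and none of its 8 values was a whole number.

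Of the JUN subunits, *Jund* was 11.1% higher in *Hint1*-/- MASMCs, and *Jun* and *Junb* were at almost the same level in both genotypes. *Jund*, the JUN gene that is the most constant in resting cells, had 4128, 3835, 4004, and 3925 counts in WT and 4250, 4311, 4854, and 4109 in *Hint1*-/- replicates 1 to 4. *Hint1*-/- replicate 3 was the highest, and WT replicate 1 and *Hint1*-/- replicate 4 were at nearly the same CPM, so the groups just overlapped. Mean CPM was 190 ± 6.38 and, in the knockout, 211 ± 15.4 (SD, n = 4 each), a log2 fold change of 0.15 (SE 0.044, 95% interval 0.060 to 0.24, adjusted p = 0.0182, edgeR). Without *Hint1*-/- replicate 3 the *Jund* value was 0.10 (adjusted p = 0.0666), and it was past the threshold in the other 15 of 16 alternatives.

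*Jun*, the founding member of the family and the main substrate of JNK, had 3651, 3522, 3678, and 3540 counts in WT and 3510, 3480, 3595, and 3614 in *Hint1*-/- replicates 1 to 4. The log2 fold change was −0.0083 (95% interval −0.075 to 0.058, adjusted p = 0.889, edgeR). *Jun* varied little, with a coefficient of variation of 2.31% in WT and 1.64% in *Hint1*-/- MASMCs, where counting alone gives 1.67%. *Junb*, a JUN protein that often restrains JUN, had 6874, 6286, 6417, and 6504 counts in WT and 6320, 6533, 6793, and 6296 in *Hint1*-/- replicates 1 to 4. Its samples overlapped fully, with a log2 fold change of 0.0033 (95% interval −0.073 to 0.079, adjusted p = 0.964, edgeR). *Junb* shares 173 exon bases with *Prdx2* on the opposite strand.

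*Atf3* had the largest difference of the 9 members. It encodes a stress-induced factor that pairs with JUN proteins and often represses. Its counts were 684, 817, 727, and 773 in WT replicates 1 to 4 and 553, 633, 598, and 552 in *Hint1*-/- replicates 1 to 4, and the highest *Hint1*-/- sample was below the lowest WT sample. The level fell by 21.5%, from 35.9 ± 2.67 CPM in WT to 28.2 ± 1.91 CPM in *Hint1*-/- MASMCs (SD, n = 4 each). The log2 fold change was −0.35 (SE 0.058, 95% interval −0.47 to −0.23, adjusted p = 0.00022, edgeR). *Atf3* and *Fosl2* were past the threshold in all 16 alternatives, with adjusted p between 1.13e-05 and 0.0015 for *Atf3* and between 3.06e-07 and 0.000972 for *Fosl2*. *Egr1*, an immediate-early factor outside AP-1 that acts in smooth muscle growth, had 5182, 5449, 5079, and 4748 counts in WT and 5500, 5446, 5283, and 5384 in *Hint1*-/- replicates 1 to 4. WT replicate 2 lay within the *Hint1*-/- range and the other WT samples lay below it. Mean CPM of *Egr1* was 245 ± 13.4 in WT samples and 260.5 ± 4.96 in the knockout (SD, n = 4 each), a log2 fold change of 0.09 (95% interval 0.012 to 0.17, adjusted p = 0.098, edgeR). It passed only without WT replicate 2 (0.12, adjusted p = 0.0226).

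Levels per length, in CPM per kb of exon, put the members in the same order in both genotypes. *Junb* was the highest, at 136 ± 5.58 in WT and 136 ± 4.72 CPM per kb in *Hint1*-/- MASMCs (SD, n = 4 each). *Jund* followed with 114 ± 3.83 and 127 ± 9.26, *Fosl1* with 70.3 ± 3.16 and 69.2 ± 3.74, *Egr1* with 54.6 ± 2.99 and 58.1 ± 1.11, and *Jun* with 54.0 ± 1.25 and 53.7 ± 0.879 CPM per kb. *Fosl2* was at 17.3 ± 0.339 and 20.1 ± 0.799, *Atf3* at 16.7 ± 1.24 and 13.1 ± 0.887, *Fos* at 4.02 ± 0.370 and 3.35 ± 0.268, and *Fosb* at 0.709 ± 0.0652 and 0.620 ± 0.0180 CPM per kb. *Fos* was thus well below its relatives *Fosl1* and *Fosl2* at 24 hours of PDGF-BB. Neighbours whose samples overlapped were *Egr1* with *Jun* and *Fosl2* with *Atf3* in WT, and *Junb* with *Jund* in *Hint1*-/- MASMCs. Taking the longest transcript as the length left the order the same. In proportion it moved the values most for *Fosb*, from 0.709 to 1.17 CPM per kb in WT. In CPM per kb it moved them most for *Junb*, from 136 to 172 in WT.

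Within the FOS family, *Fosl1* made up most of the summed level per length, at 75.1% to 76.7% in WT and 71.9% to 75.6% in *Hint1*-/- samples. *Fosl2* made up 18.1% to 19.3% in WT and 20.6% to 23.8% in *Hint1*-/- samples. *Fos* made up 3.91% to 4.76% and 3.15% to 3.87%, and *Fosb* under 1%. Within the JUN family, *Jund* made up 37.4% to 37.8% in WT and 38.9% to 41.6% in *Hint1*-/- samples, and *Junb* 44.0% to 45.2% and 42.2% to 43.6%. The ranges of the genotypes were apart for *Fosl2*, *Fos*, *Jund*, and *Junb* and overlapped for *Fosl1*, *Fosb*, and *Jun*. A share can thus be apart without a change of the gene itself, since the level of *Junb* was almost the same in both genotypes. These shares restate the differences of the single genes and rest on the lengths used. Shares and sums of the FOS family also rest on the uncertain *Fosl1* value. The summed level was 92.4 ± 3.58 and 93.3 ± 3.05 CPM per kb for the FOS family and 303 ± 10.1 and 316 ± 13.9 CPM per kb for the JUN family (SD, n = 4 each).

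**Figure D3:**
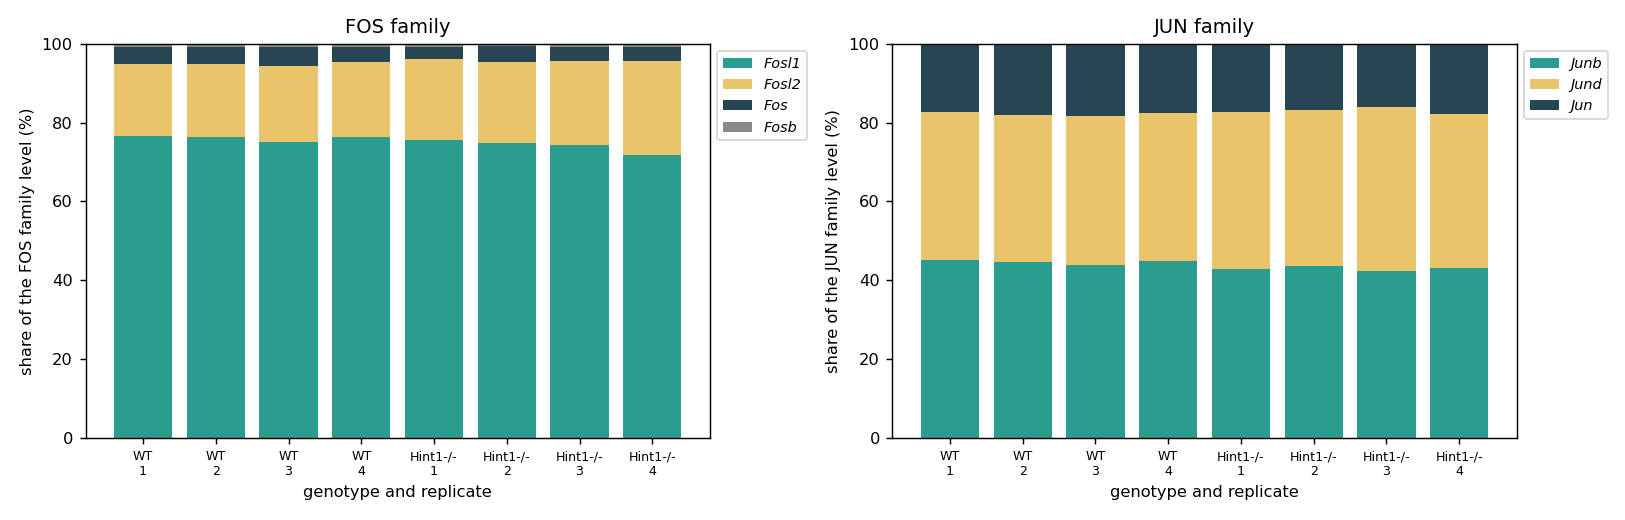
Share of each gene in the summed level per length of its family (y axis, percent), 1 bar per sample. *Fosl1*, whose value is uncertain, fills most of each FOS bar. The *Fosl2* part is 18.1% to 19.3% in WT and 20.6% to 23.8% in *Hint1*-/- samples.

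Textbook targets of AP-1 and EGR1 differed in both directions. Of 25 listed targets, 24 were tested, and 9 were higher and 7 lower in *Hint1*-/- MASMCs at an adjusted p under 0.05, 66.7% in all against 21.5% of all genes and 26.6% of genes averaging 500 counts or more. *Mmp3*, the matrix protease stromelysin, had the largest rise of the list, with 33510 to 37713 counts in WT and 66465 to 75047 in *Hint1*-/- samples (log2 fold change 0.94, SE 0.045, adjusted p = 2.16e-11, edgeR). *Mmp9*, a gelatinase, fell, with 124 to 143 counts in WT and 67 to 93 in *Hint1*-/- samples (−0.76, SE 0.12, adjusted p = 9.2e-05, edgeR). These 2 were the targets past the 1.5-fold limit. *F3*, which encodes tissue factor and starts coagulation, rose from 74.3 ± 3.47 to 109 ± 3.20 CPM (SD, n = 4 each; 0.56, adjusted p = 4.58e-09, edgeR), and *Il6*, a cytokine, from 77.0 ± 7.81 to 101 ± 4.49 CPM (0.39, adjusted p = 3.52e-05). *Hmox1*, the heme oxygenase of the stress response, fell from 377 ± 29.1 to 297 ± 19.4 CPM (−0.34, adjusted p = 6.03e-05, edgeR).

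Other immediate-early genes likewise moved both ways. Of 24 listed, 23 were tested and 10 passed the adjusted p, 6 higher and 4 lower, none past 1.5-fold, where 21.5% of all genes passed, 11.2% higher and 10.2% lower. *Ccn1* and *Ccn2*, matricellular proteins induced by growth factors, were higher (log2 fold changes 0.35 and 0.33, adjusted p = 3.64e-06 and 1.87e-05, edgeR). *Nr4a1*, an orphan nuclear receptor, was lower, with 271 to 303 counts in WT and 205 to 255 in *Hint1*-/- samples (−0.36, adjusted p = 0.00161, edgeR). Of 12 other bZIP genes that can pair with FOS or JUN, 11 were tested and 4 passed (36.4%, against the same 21.5% of all genes), 2 in each direction. *Maff*, a small MAF protein, was higher (0.26, adjusted p = 0.000373), and *Jdp2*, a repressor that pairs with JUN, was lower (−0.17, adjusted p = 0.00267, edgeR).

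Of 24 listed kinases and serum response factors, 23 were tested and 2 passed the adjusted p (8.70%, against 21.5% of all genes). *Map2k1*, the kinase MEK1, was higher (log2 fold change 0.20, 223 ± 2.81 against 256 ± 4.58 CPM, SD, n = 4 each, adjusted p = 7.95e-05, edgeR), and *Rps6ka1*, the kinase RSK1, was lower (−0.30, 38.0 ± 2.57 against 30.9 ± 1.77 CPM, adjusted p = 0.000498, edgeR). Among 11 cofactors, scaffolds, and turnover factors, 10 were tested and 1 passed, below the share of all genes, *Nab2*, a corepressor of EGR1 (0.11, adjusted p = 0.0452, edgeR), which did not pass in DESeq2 (0 of the list). Of 8 heat shock genes, which encode chaperones of the stress response, 2 passed (25.0%, near the share of all genes), *Hspb1* (−0.17, adjusted p = 0.0064) and *Hspd1* (−0.11, adjusted p = 0.0177, edgeR).

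**Figure D4:**
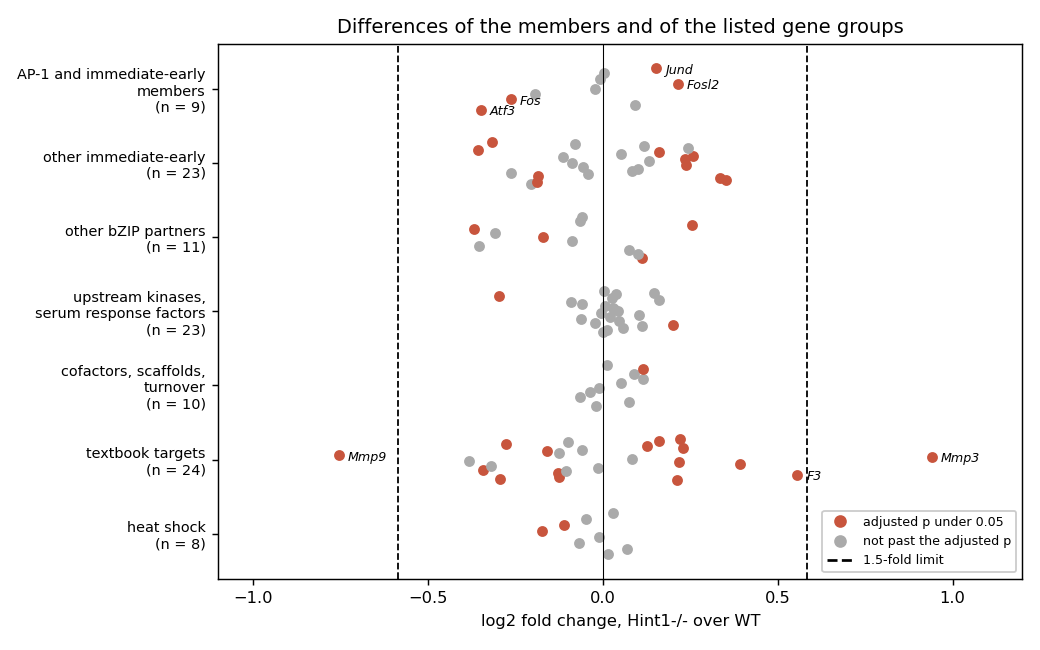
Log2 fold change, *Hint1*-/- over WT, of every tested gene in the members and in the 6 lists of related genes, with red for an adjusted p under 0.05. *Mmp3* and *Mmp9* among the textbook targets are the genes outside the dashed 1.5-fold lines.

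Markers of other cell types also differed between the genotypes, and in bulk RNA fewer cells of a type and less RNA per cell cannot be told apart. Markers are counted here as higher or lower at an adjusted p under 0.05 (edgeR), where 11.2% of all genes were higher and 10.2% lower. All 6 tested macrophage markers were lower in *Hint1*-/- MASMCs at log2 fold changes of −0.44 to −0.25, with a summed level of 2262 to 2619 CPM in WT and 1847 to 1967 CPM in *Hint1*-/- samples. Of the 4 members past the adjusted p, *Atf3* (−0.35) and *Fos* (−0.26) ran in the same direction, and *Fosl2* (0.21) and *Jund* (0.15) ran the other way. Of the textbook targets past it, 7 were lower, *Mmp9* among them, and 9 were higher. Of the Schwann cell markers, 5 of 6 were lower, with sums of 41.3 to 47.7 and 9.13 to 11.6 CPM. Of 8 smooth muscle markers, 5 were lower and 1 higher, with sums of 1375 to 1491 and 1137 to 1228 CPM. Of 5 fibroblast markers, 3 were higher and 1 lower, with sums of 1446 to 1562 and 2412 to 2536 CPM. Of 5 cardiac markers, 3 were tested, and these summed to 0.956 to 1.82 CPM in WT and 4.24 to 6.97 CPM in *Hint1*-/- samples. Of the 3 that passed the filter on low counts, *Myh6* (0 to 3 counts in WT and 32 to 58 in *Hint1*-/- samples) and *Myl7* (0 in every WT sample) passed it only through the *Hint1*-/- samples, so their direction was fixed by the filter. The cardiac sum holds both genes, so its rise is no separate result. The 4 tested endothelial markers were low in both genotypes (their summed level was under 6 CPM in every sample), and none passed the adjusted p. The part of these differences in those of the 9 genes was not tested.

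The genes whose log2 CPM, centred on the gene mean, ran closest to that of *Atf3* over the 8 samples, among 11848 genes averaging 50 counts or more, were *Pld4* (root mean square difference 0.033), *Msr1* (0.039), and *Lpcat2* (0.042). Those closest to *Fos* were *Has2* (0.032), *Ifi207* (0.063), and *Hap1* (0.063). All 6 were lower in *Hint1*-/- MASMCs, with log2 fold changes of −0.35, −0.34, and −0.35 for the genes near *Atf3* and −0.27, −0.27, and −0.21 for those near *Fos*. The genotype difference is part of this likeness, which is a description with no test.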

How the data were processed

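RNA-Seq was performed on 8 samples of PDGF-BB–treated MASMCs, grouped by the genotype in the sample labels. The study's methods state alignment to mm10 with HISAT2, and the submitters' processing notes name Bowtie2, RSEM 1.3.1, and DESeq2 1.4.5. The authors deposited estimated counts per gene symbol without normalization or pooling; 67.3% to 67.8% of values in a sample were whole. Reads that fit several genes are divided in such counts, and strand use in counting is not given in the sources used here.

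Counts were rounded, filtered with filterByExpr, normalized by TMM (factors 0.993 to 1.01), and compared with glmQLFit and glmQLFTest of edgeR 4.0.16 in R 4.3.3, two-sided, with genotype as the only term and Benjamini-Hochberg adjustment over all 13535 genes tested. The SE is the log2 fold change divided by the square root of F. Code was tested on simulated data. DESeq2 1.42.0 and limma 3.58.1 (voom) were alternatives, as were other scalings, other filters, the replicate number as a block, and each sample left out. Figures used Python 3.11.15. Gene positions and lengths came from GENCODE M21. Pairs of samples within a genotype differed by a chi-square of 2.09 to 5.50 per gene, above the value near 1 that counting noise gives, so all 8 were kept as separate samples.

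The members and lists were chosen with earlier results of these data known. Genes were named by rule: the members, *Hint1*, list genes past both thresholds (at most 6 per list), up to 3 past the adjusted p alone with the largest change where fewer than 3 passed both, and the 3 genes most like each of the 2 most changed members. *Myh6*, *Myl7*, *Ccdc85b*, and *Prdx2* were named after values or positions had been seen. The result for 1 gene that the rule names is not reported here. Counting error of PCR reads without molecular identifiers is a lower limit on the true error.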

Additional observations from a re-analysis of the deposited data

Results flagged for a closer look

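In 50 groups of 4 samples (9 members and 16 list genes chosen by the rule in each genotype), 2 held a sample set apart from the other 3 by Dixon's ratio, where chance gives about 2.5, and neither was a group of a member. *Mmp3* in WT had a ratio of 0.909, since replicate 2 had 33510 counts and the others 37329 to 37713. *F3* in *Hint1*-/- MASMCs had a ratio of 0.859, since replicate 4 had 2170 counts and the others 2283 to 2308. The genotype difference of both genes is larger than these gaps.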

How the results depend on the processing

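Of the counts and medians recomputed under other settings, 165 stayed within 1.5 times the main value or within the spread, and 11 moved. No member that passed the adjusted p changed direction. The median log2 fold change of the members, near 0, ran from −0.0182 to 0.0129 with a sample left out and was above 0 without WT replicate 1 (0.0036) or *Hint1*-/- replicate 4 (0.0129). For cofactors, scaffolds, and turnover factors, where 1 gene passed the adjusted p, 0 passed with upper-quartile scaling, with library sizes that leave out the 20 most abundant genes, and in DESeq2, and 0 to 1 passed with a sample left out. With a sample left out, 2 to 4 of the other bZIP genes and 1 to 2 of the heat shock genes passed. The members past the adjusted p numbered 3 to 4, and 0 passed the 1.5-fold limit throughout. Whether the replicate numbers pair the samples was not settled. Deviations of same-numbered samples correlated weakly, at 0.183, 0.136, −0.0492, and 0.0630, but 3 of 4 numbers correlated best with their own. With the replicate number as a block, 4 members and 2 of the cofactors, scaffolds, and turnover factors passed. Over all genes 3082 passed the adjusted p with the block and 2907 without it. Under other scalings the median of all genes was −0.0176 to −0.0008 on the log2 scale, against 0.00031, and the calls were 1350 higher and 1535 lower with upper-quartile scaling and 1253 and 1695 without the 20 most abundant genes. Precision is limited by 4 samples per genotype and, for *Fos* and *Fosb*, by counts of 210 or less per sample.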
